A study of Mus musculus with 8 samples.

Results

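The genes of the CREB transcription factor family, of the CRTC coactivators that bind them and of the salt-inducible kinases (SIKs) that restrain the CRTCs were followed in maps of histone H3 acetylated at lysine 27 (H3K27ac), a mark of active promoters and enhancers. The set holds 10 genes, chosen by name, of the 21887 protein-coding genes in the RefSeq gene table of mouse build GRCm38.p6 (mm10): Creb1, Crem, Atf1 and Creb5, then Crtc1, Crtc2 and Crtc3, then Sik1, Sik2 and Sik3. All 10 were found in the table. For each gene, every H3K27ac peak that overlapped the gene span plus 10 kb on each side by at least 1 bp was taken from each of 4 deposited peak lists.

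The cells were mpkCCD clone 11, a clonal mouse line of the cortical collecting duct of the kidney. On permeable supports they formed a tight layer, and were then held for 24 h in medium without serum or hormones, so that the dexamethasone, insulin, triiodothyronine and epidermal growth factor of the growth medium had been withdrawn from both groups. The dDAVP group then received 0.1 nM dDAVP, an analogue of vasopressin selective for the V2 receptor, for 24 h, and the vehicle group received the vehicle alone for as long. Experiments 1 and 2 each gave 1 H3K27ac library and 1 input library per treatment, which makes 4 H3K27ac and 4 input libraries in all. The labels give the experiment number but not whether the experiments were separate cultures.

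Vasopressin acts on principal cells of the collecting duct by raising cyclic AMP, which activates protein kinase A. That kinase phosphorylates CREB1 and its close relatives ATF1 and CREM, which sit on cyclic AMP response elements, and it also phosphorylates the SIKs and blocks their action. Active SIKs keep CRTC proteins phosphorylated and held in the cytoplasm by 14-3-3 proteins, so blocked SIKs let CRTCs enter the nucleus and join CREB. Crem and Sik1 are themselves known in other tissues as genes that CREB switches on: an internal promoter of Crem makes the short repressor ICER, and SIK1 acts back on the CRTCs.

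The lists differed in length, with 37235 peaks over 99.0 Mb for dDAVP and 39745 over 104 Mb for vehicle in experiment 1, and 20124 peaks over 33.5 Mb for dDAVP and 29597 over 56.9 Mb for vehicle in experiment 2. The dDAVP list was thus the shorter one in both experiments, and both lists of experiment 2 were shorter than those of experiment 1. Tags kept in the H3K27ac libraries ranged from 27923780 to 32705755. As a check of the labelled cell type, the starts of 8 of 8 principal cell markers (Aqp2, Aqp3, Avpr2, Scnn1a, Scnn1g, Hsd11b2, Gata3 and Elf3) carried a peak in all 4 lists, and 0 of 4 intercalated cell, 0 of 4 proximal tubule, 0 of 3 thick limb and distal convoluted tubule, 0 of 2 podocyte, 0 of 2 fibroblast and 0 of 3 leukocyte and endothelial markers did. Of these other markers, the Slc12a3 start was called in 1 list. The windows of Slc12a3, Cubn and Pdgfrb held peaks in every list, and those of Slc4a1, Slc26a4 and Ptprc in some. With 2 lists against 2 an exact permutation test within pairs cannot give a p below 0.5, so no difference between treatments was tested and each is given with its 2 within-experiment values.

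Most promoters of these genes were acetylated with and without dDAVP. For each gene the most upstream listed start was counted, and later starts of the same gene were not. A start was called where a peak overlapped 1 kb on either side of it, and 9 of the 10 genes had a called start in all 4 lists, against 45.1% of all protein-coding genes. The table lists a start for 7 of the genes, of which 6 were called in all 4 lists, against 45.9% of all genes with a listed start. For Crem, Crtc2 and Sik1 no start is listed and either end of the gene was taken. All 3 were called in all 4 lists on that looser rule, which 41.9% of all genes without a listed start also met. The exception was Creb5, whose first start, at the low-coordinate end of this long gene, had no peak within 1 kb in any list. Its second listed start, inside the gene, was called in all 4.

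Peaks at the starts of Atf1 and Creb1 and at the high-coordinate end of Crem ranked among the strongest of the set. Within each list, a peak's rank was taken from the fold enrichment over input that the authors' peak caller gave it, and ranks are not compared between lists of different length. The Atf1 start peak had a fold of 9.97 with dDAVP against 9.39 with vehicle in experiment 1, and 10.5 with dDAVP against 11.2 with vehicle in experiment 2, which placed it between percentiles 97.0 and 99.2 of its lists. Creb1 followed, with a fold of 7.73 with dDAVP against 9.27 with vehicle in experiment 1, and 7.55 with dDAVP against 12.1 with vehicle in experiment 2 (percentiles 93.4 to 98.7). The high-coordinate end of Crem had folds of 6.61 with dDAVP against 7.29 with vehicle, then 7.04 with dDAVP against 9.36 with vehicle, at percentiles 88.2 to 95.2. Atf1 and Creb1 thus lay near the top of every list, while the start of Crtc3, with folds of 3.35 with dDAVP against 3.66 with vehicle, then 3.58 with dDAVP against 3.6 with vehicle, lay near the middle, between percentiles 40.7 and 61.2. The starts of Crtc1 (percentiles 49.2 to 77.0), Sik2 (70.3 to 81.6) and Sik3 (73.9 to 79.0) and the second start of Creb5 (57.2 to 68.8) lay between these. Peaks at the ends of Crtc2 lay at percentiles 48.0 to 90.9 (low end) and 70.4 to 89.9 (high end), and those of Sik1 at 29.4 to 74.1 (low end) and 70.0 to 91.5 (high end).

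**Figure D1:**
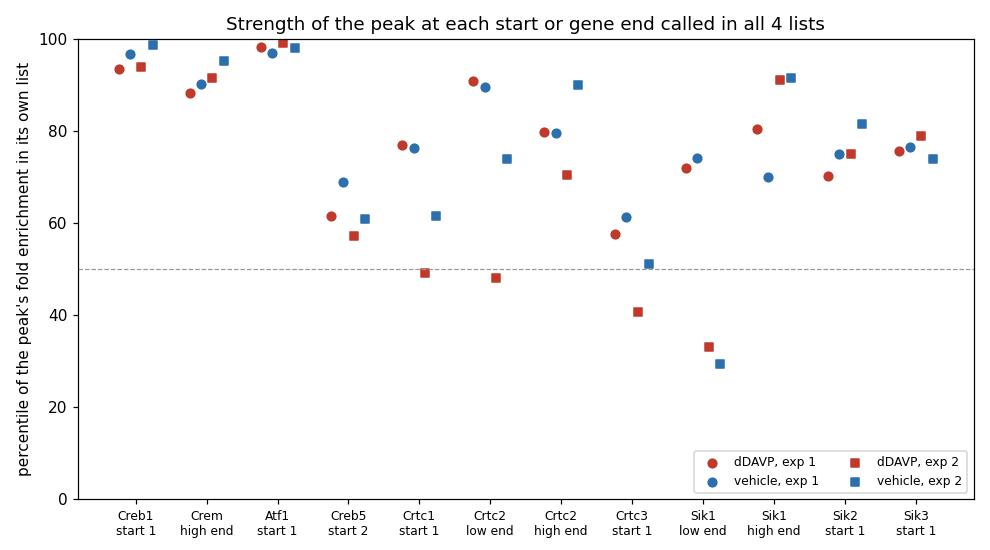
Percentile of the start peak's fold enrichment within its own list (vertical axis, 0 to 100) for each listed start or gene end called in all 4 lists (horizontal axis); circles are experiment 1, squares experiment 2, red dDAVP, blue vehicle. The Atf1 points lie between 97.0 and 99.2 in all 4 lists, while those of Crtc3 lie between 40.7 and 61.2.

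The start windows are shown for the elements that CREB proteins bind. RefSeq windows of GRCm38.p6 that reach from 250 bases before a start to 50 bases from it onward were matched for 7 of the genes, Creb5 having 2. A search of both strands for the full cyclic AMP response element TGACGTCA and for its core TGACG, which the full element contains on each strand, found the full element in 475 of all 21263 windows (2.23%) and the core in 5021 (23.6%). Of the 8 windows, 1 held the full element and 4 the core, at 8 places in all. The full element stood in the first Creb5 window, the one listed start of these genes that was not called, beginning at position -45 when the start base is counted as 0. The windows of Creb1, Crtc1 and Crtc3 held neither, nor did the second Creb5 window. The 4 windows with an element are shown with the second Creb5 window for contrast, 5' to 3' on the strand of the gene, with TGACG on either strand in capitals: Atf1 at chr15:100227609-100227908 (+ strand), Creb5 start 1 at chr6:53287053-53287352 (+), Creb5 start 2 at chr6:53573124-53573423 (+), Sik2 at chr9:51009024-51009323 (- strand) and Sik3 at chr9:46012570-46012869 (+).
Atf1: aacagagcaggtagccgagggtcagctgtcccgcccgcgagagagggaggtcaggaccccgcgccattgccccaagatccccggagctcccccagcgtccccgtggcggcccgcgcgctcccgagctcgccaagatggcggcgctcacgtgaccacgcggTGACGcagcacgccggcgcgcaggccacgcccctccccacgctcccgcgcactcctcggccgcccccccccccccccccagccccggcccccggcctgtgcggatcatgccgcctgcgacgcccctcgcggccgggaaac
Creb5 start 1: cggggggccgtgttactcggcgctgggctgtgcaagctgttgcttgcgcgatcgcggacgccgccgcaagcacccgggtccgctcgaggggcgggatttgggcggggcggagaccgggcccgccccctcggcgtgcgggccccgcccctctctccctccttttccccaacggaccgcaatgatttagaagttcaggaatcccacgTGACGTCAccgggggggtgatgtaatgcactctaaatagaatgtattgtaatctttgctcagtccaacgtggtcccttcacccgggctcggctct
Creb5 start 2: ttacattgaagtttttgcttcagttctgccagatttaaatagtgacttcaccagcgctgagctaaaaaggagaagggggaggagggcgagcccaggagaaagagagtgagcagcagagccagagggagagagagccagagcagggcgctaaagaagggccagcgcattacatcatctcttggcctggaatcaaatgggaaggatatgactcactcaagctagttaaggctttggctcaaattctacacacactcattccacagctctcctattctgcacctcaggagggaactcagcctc
Sik2: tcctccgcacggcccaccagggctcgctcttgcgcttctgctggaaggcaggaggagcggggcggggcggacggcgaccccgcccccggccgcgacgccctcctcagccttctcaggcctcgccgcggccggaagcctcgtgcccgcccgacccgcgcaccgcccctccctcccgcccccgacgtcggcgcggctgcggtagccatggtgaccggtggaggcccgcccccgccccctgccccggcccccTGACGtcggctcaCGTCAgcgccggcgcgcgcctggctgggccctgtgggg
Sik3: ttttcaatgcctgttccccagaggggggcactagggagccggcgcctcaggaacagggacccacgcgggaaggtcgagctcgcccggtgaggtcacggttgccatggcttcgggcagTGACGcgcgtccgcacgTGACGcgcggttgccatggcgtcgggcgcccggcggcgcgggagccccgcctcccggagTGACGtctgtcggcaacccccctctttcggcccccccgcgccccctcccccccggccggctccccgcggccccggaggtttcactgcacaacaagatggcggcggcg
In Atf1 the core began at position -90. Sik2 held 2 cores on opposite strands, at positions -1 and 12, and Sik3 held 3 on the same strand, at -133, -116 and -57. Bases G and C made up 77.3% of the Atf1 window, 80.0% of the Sik2 window, 73.7% of the Sik3 window and 64.7% of the first Creb5 window, but 50.0% of the second Creb5 window, against a median of 56.3% over all windows. The other windows without an element held 69.0% (Creb1), 71.7% (Crtc1) and 74.7% (Crtc3), so this share did not separate windows with and without an element. A match describes the letters of the window only.

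**Figure D2:**
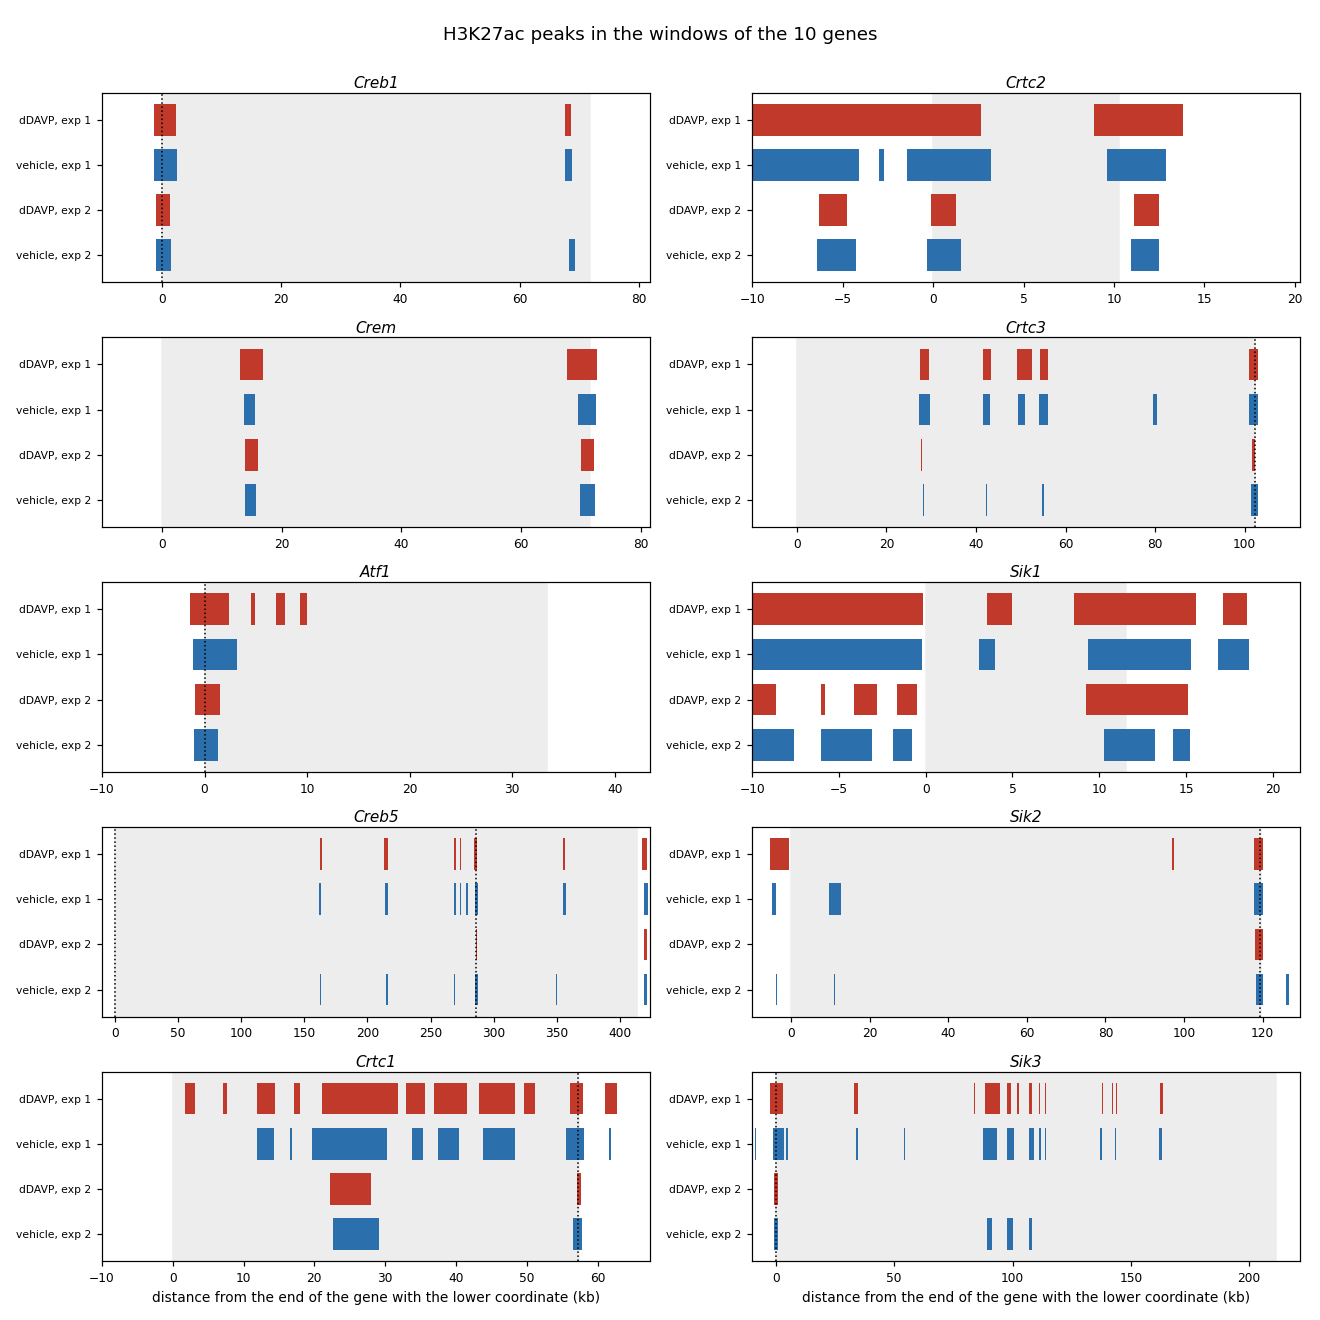
H3K27ac peaks in the window of each gene, by distance from the end of the gene with the lower coordinate (kb); rows from top to bottom are dDAVP and vehicle of experiment 1, then dDAVP and vehicle of experiment 2, the grey area is the gene and dotted lines are listed starts. Crem has the same pair of peaks in all 4 lists, and the row of peaks at 87.5 to 109 kb in Sik3 is missing in dDAVP of experiment 2.

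Treatments were compared by the bases that peaks covered in each gene's window, as the ratio of dDAVP to vehicle within an experiment. Across the 12558 protein-coding genes covered in all 4 lists, the median ratio was 0.987 in experiment 1 and 0.714 in experiment 2 (-0.02 and -0.49 on the log2 scale), so the typical gene was covered less with dDAVP in experiment 2. For the 10 genes the median log2 ratios were 0.21 and -0.49. Summed over the 10 windows, 145165 bases were covered with dDAVP against 125583 with vehicle in experiment 1, and 38352 with dDAVP against 57295 with vehicle in experiment 2. Coverage was higher with dDAVP for 7 of the 10 genes in experiment 1, against 46.6% of all genes covered in all 4 lists, and for 2 in experiment 2, against 4.78%. The experiments pointed the same way for 5 of the 10, against 54.2% of those genes. None of the 10 had both dDAVP lists above the 2 vehicle lists, against 0.104% of all genes, and 0 had both below them, against 5.66%.

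Among the CREB family, Crem, which encodes activator and repressor forms of a CREB relative, stood furthest to the dDAVP side. Crem (gene ID 12916, chr18:3266354-3337773) had 8618 covered bases with dDAVP against 4732 with vehicle in experiment 1, and 4542 with dDAVP against 4195 with vehicle in experiment 2. The mean was 6580 ± 2882 bases with dDAVP and 4464 ± 380 with vehicle (SD, n = 2 each), a within-experiment difference, dDAVP minus vehicle, of 2116 ± 2502 (SD, n = 2). Both experiments pointed to more coverage with dDAVP, by ratios of 1.82 and 1.08, but the first by far more than the second, and the difference was smaller than its own SD. Those ratios lay at percentiles 98.9 and 98.1 of the 12558 genes, and 13 genes, Crem included, had both ratios at least as high.

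Atf1, which encodes a close CREB relative, was the other gene covered more with dDAVP in both experiments. Atf1 (gene ID 11908, chr15:100227859-100261248) had 5683 covered bases with dDAVP against 4305 with vehicle in experiment 1, and 2420 with dDAVP against 2288 with vehicle in experiment 2, ratios of 1.32 and 1.06 (percentiles 91.2 and 97.6). Its excess in experiment 1 came from 3 small peaks inside the gene, of 400, 868 and 631 bases and with folds of 2.35, 2.29 and 2.68, that were called only in that dDAVP list. At the Atf1 start itself, peaks covered 3784 bases with dDAVP against 4305 with vehicle in experiment 1, and 2420 with dDAVP against 2288 with vehicle in experiment 2, so the start region alone did not point the same way in both experiments.

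Creb1, the founding member of the family, and Creb5, a more distant relative, were covered less with dDAVP in both experiments. Creb1 (gene ID 12912, chr1:64532794-64604548) had 4807 covered bases with dDAVP against 4849 with vehicle in experiment 1, and 2419 with dDAVP against 3619 with vehicle in experiment 2, ratios of 0.991 and 0.668, close to the medians of all genes. Its start region hardly differed, with 3786 bases with dDAVP against 3746 with vehicle in experiment 1, and 2419 with dDAVP against 2543 with vehicle in experiment 2. A second Creb1 region near the high-coordinate end, of 1021 bases with dDAVP against 1103 with vehicle in experiment 1, had no peak with dDAVP and 1076 bases with vehicle in experiment 2. Creb5 (gene ID 231991, chr6:53287226-53700364) had 15803 covered bases with dDAVP against 15862 with vehicle in experiment 1, and 3673 with dDAVP against 9575 with vehicle in experiment 2, ratios of 0.996 and 0.384. At the second Creb5 start, chr6:53571810-53574553, peaks covered 2299 bases with dDAVP against 2183 with vehicle in experiment 1, and 1270 with dDAVP against 2219 with vehicle in experiment 2. Creb5 therefore differed between treatments almost wholly in experiment 2, where intragenic regions at 162.0 to 163.6 kb and 213.4 to 216.5 kb from the low end were called with vehicle alone.

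The 2 regions of Crem were each called in all 4 lists and are given apart. The internal region, chr18:3279458-3283174, lies 13.1 to 16.8 kb inside the gene from its low-coordinate end. Peaks there covered 3717 bases with dDAVP against 1752 with vehicle in experiment 1, and 2231 with dDAVP against 1723 with vehicle in experiment 2, ratios of 2.12 and 1.29. The peak was thus wider with dDAVP in both experiments. Its mean tag pileup, the caller's coverage value, was 24.6 with dDAVP against 29.5 with vehicle in experiment 1, and 25.4 with dDAVP against 34.0 with vehicle in experiment 2. The authors' fold for it was 5.07 with dDAVP against 5.78 with vehicle in experiment 1, and 5.61 with dDAVP against 7.71 with vehicle in experiment 2. Pileup and fold are means over peaks of different length, scaled in separate calls, and were not compared between treatments. The region at the high-coordinate end, chr18:3334040-3338940, covered 4901 bases with dDAVP against 2980 with vehicle in experiment 1, and 2311 with dDAVP against 2472 with vehicle in experiment 2, ratios of 1.64 and 0.935. Only the internal region was thus covered more in both experiments, with a mean log2 ratio of 0.73 ± 0.50 (SD, n = 2). Of the 16537 regions called in all 4 lists genome-wide, 22, this one included, had both ratios at least as high. The gene table used here lists no start within Crem, so neither region is assigned to a transcript.

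**Figure D3:**
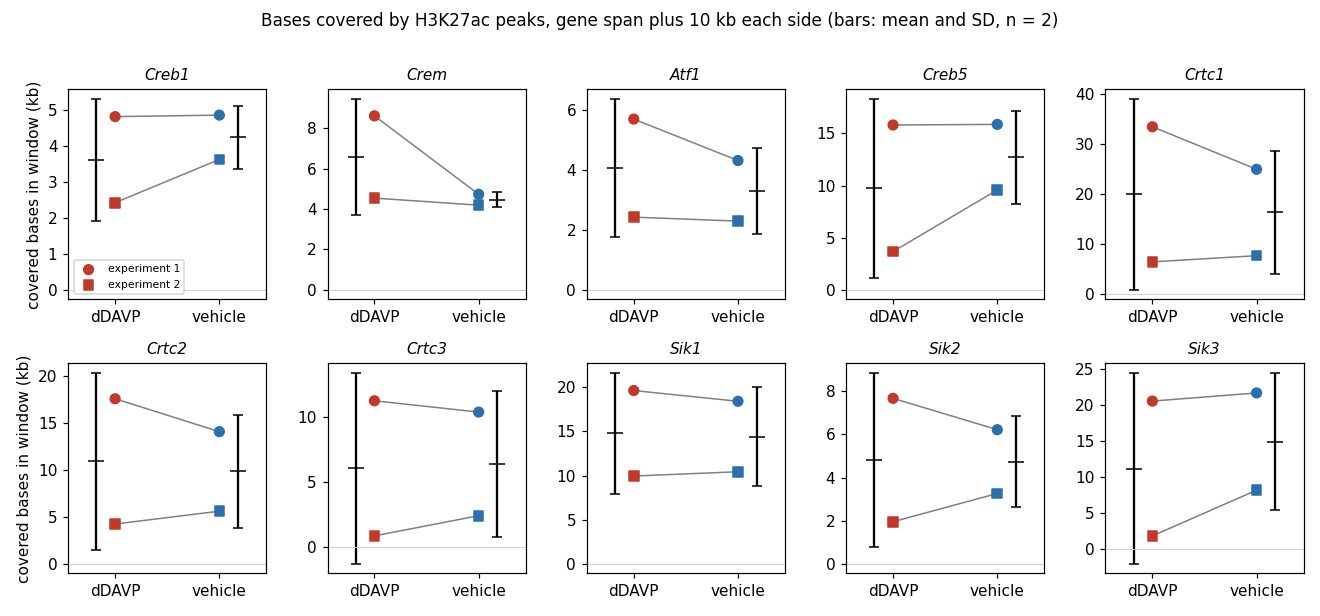
Bases covered by H3K27ac peaks (kb) in the gene span plus 10 kb each side, for dDAVP on the left and vehicle on the right of each panel; circles are experiment 1, squares experiment 2, lines join the lists of 1 experiment, and black bars are the mean and SD (n = 2). Crem and Atf1 are higher with dDAVP in both experiments, and for all 10 genes the range of the dDAVP lists overlaps that of the vehicle lists.

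The CRTC genes encode the coactivators that bind CREB when dephosphorylated, and all 3 were covered more with dDAVP in experiment 1 and less in experiment 2. Crtc1 (gene ID 382056, chr8:70382352-70439702) had 33534 covered bases with dDAVP against 25025 with vehicle in experiment 1, and 6488 with dDAVP against 7730 with vehicle in experiment 2, ratios of 1.34 and 0.839. Crtc2 (gene ID 74343, chr3:90253858-90264125), best known as the coactivator through which glucagon acts on mouse liver, had 17579 with dDAVP against 14076 with vehicle, then 4243 with dDAVP against 5607 with vehicle, ratios of 1.25 and 0.757. Crtc3 (gene ID 70461, chr7:80586627-80688948) had 11248 with dDAVP against 10378 with vehicle, then 844 with dDAVP against 2399 with vehicle, ratios of 1.08 and 0.352. Crtc1 and Crtc2 were above the median ratio of all genes in both experiments, whereas Crtc3 was above it in experiment 1 and at percentile 7.89 in experiment 2.

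Within Crtc1 the start and the gene body differed. The Crtc1 start region was covered less with dDAVP in both experiments, with 1795 bases with dDAVP against 2449 with vehicle in experiment 1, and 647 with dDAVP against 1280 with vehicle in experiment 2. Inside Crtc1 a region of 12168 bases, chr8:70402054-70414221, was broader and ranked higher than the start: peaks covered 10782 bases with dDAVP against 10599 with vehicle in experiment 1, and 5841 with dDAVP against 6450 with vehicle in experiment 2. Its strongest peaks had folds of 8.52 with dDAVP against 7.47 with vehicle in experiment 1, and 6.44 with dDAVP against 6.5 with vehicle in experiment 2. The surplus of Crtc1 in experiment 1 lay in further intragenic and flanking peaks, for example 2783 bases with dDAVP against 1435 with vehicle at 32.9 to 35.7 kb from the low end. At the Crtc3 start, peaks covered 2061 bases with dDAVP against 2106 with vehicle in experiment 1, and 629 with dDAVP against 1473 with vehicle in experiment 2, and an intragenic region 27.4 to 29.6 kb from the low end covered 2100 with dDAVP against 2266 with vehicle, then 215 with dDAVP against 312 with vehicle. Both Crtc3 regions were thus covered less with dDAVP in both experiments.

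Crtc2 is a short gene with close neighbours, and its peaks cannot be given to it alone. The region at its low-coordinate end, 14277 bases long, also overlaps starts of Slc39a1, a zinc transporter gene 245 bp away, and of Creb3l4, which encodes a membrane-bound CREB relative. Over its whole length, which runs past the 10 kb flank, peaks covered 13750 bases with dDAVP against 11877 with vehicle in experiment 1, and 2883 with dDAVP against 4482 with vehicle in experiment 2. The region at its high-coordinate end, 4927 bases long, also overlaps the start of Dennd4b, whose span begins 895 bp away, and covered 4927 with dDAVP against 3253 with vehicle, then 1360 with dDAVP against 1532 with vehicle. Neither region pointed the same way in both experiments.

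Among the kinases, Sik1 had the largest share of its window covered, which was also the largest of the set. Sik1 (gene ID 17691, chr17:31844248-31855804), the cyclic AMP-inducible member, had 19630 covered bases with dDAVP against 18411 with vehicle in experiment 1, and 9949 with dDAVP against 10428 with vehicle in experiment 2, ratios of 1.07 and 0.954. Peaks filled 62.2% of its window with dDAVP against 58.3% with vehicle in experiment 1, and 31.5% with dDAVP against 33.0% with vehicle in experiment 2, the highest of the 10 genes in each of the 4 lists, followed each time by Crtc2 and Crtc1. The other 7 genes stayed at or below 10.6% in every list, and their order changed between lists. Most of the Sik1 window is flank, as the gene spans 11557 of its 31557 bases, and much of the coverage lay outside the gene. The ranking is by window and was not made within gene spans. The long noncoding RNA gene Gm41564 also overlaps the span of Sik1. The Sik1 ratio lay at percentile 91.8 of all genes in experiment 2, beside 67.2 in experiment 1.

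The 2 ends of Sik1 differed. At the high-coordinate end, chr17:31852788-31859801, peaks covered 7014 bases with dDAVP against 5931 with vehicle in experiment 1, and 5916 with dDAVP against 3954 with vehicle in experiment 2, ratios of 1.18 and 1.5 (mean log2 ratio 0.41 ± 0.24, SD, n = 2). The dDAVP list held 1 unbroken peak there in experiment 2, while the vehicle list held 2, of 2920 and 1034 bases, and 80 of the 16537 shared regions, this one included, had both ratios at least as high. Beyond the low-coordinate end, in a region that runs past the 10 kb flank (chr17:31824870-31844062), peaks covered 19193 with dDAVP against 18677 with vehicle in experiment 1, and 7915 with dDAVP against 12259 with vehicle in experiment 2. In experiment 2 the flanking domain was thus covered less with dDAVP and the high end of the gene more.

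Sik2 and Sik3, the kinases of this family that are less tied to induction by cyclic AMP, had at most 9.39% of their windows covered in any list. Sik2 (gene ID 235344, chr9:50889644-51009132) had 7671 covered bases with dDAVP against 6219 with vehicle in experiment 1, and 1954 with dDAVP against 3261 with vehicle in experiment 2, ratios of 1.23 and 0.599. Its start region, chr9:51007355-51009809, which contains the window with 2 TGACG cores shown above, covered 2408 with dDAVP against 2220 with vehicle, then 1954 with dDAVP against 1864 with vehicle, ratios of 1.08 and 1.05. Both ratios were at least as high in 407 of the 16537 shared regions, this one included. Sik2 also held the single region called by treatment alone: chr9:50899246-50902156, inside the gene, had no peak in either dDAVP list, and 2911 bases with vehicle in experiment 1 and 214 in experiment 2. Its folds with vehicle were low, 2.82 and 2.65. In the flank, a region at -5.5 to -0.7 kb from the low end of Sik2 covered 4815 bases with dDAVP against 1088 with vehicle in experiment 1. In experiment 2 that region had no dDAVP peak and 210 bases with vehicle. With no flank, Sik2 was covered less with dDAVP in both experiments, with log2 ratios of -1.0 and -0.02. The span of Ppp2r1b overlaps that of Sik2.

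Sik3 was covered less with dDAVP in both experiments and stood furthest to the vehicle side. Sik3 (gene ID 70661, chr9:46012820-46224194) had 20592 covered bases with dDAVP against 21726 with vehicle in experiment 1, and 1820 with dDAVP against 8193 with vehicle in experiment 2, ratios of 0.948 and 0.222 (percentiles 40.9 and 2.70). The within-experiment difference, dDAVP minus vehicle, was -3754 ± 3705 bases (SD, n = 2). In experiment 2 the dDAVP list kept only the start region, which covered 1820 bases with dDAVP against 1911 with vehicle, while 3 intragenic regions between 87.5 and 109 kb from the low end covered 2012, 2732 and 1538 bases with vehicle and had no dDAVP peak. Folds of the vehicle peaks there lay between 2.80 and 3.19, below the median of that list. The Sik3 start region is shared with Pafah1b2, a gene 130 bp away.

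**Figure D4:**
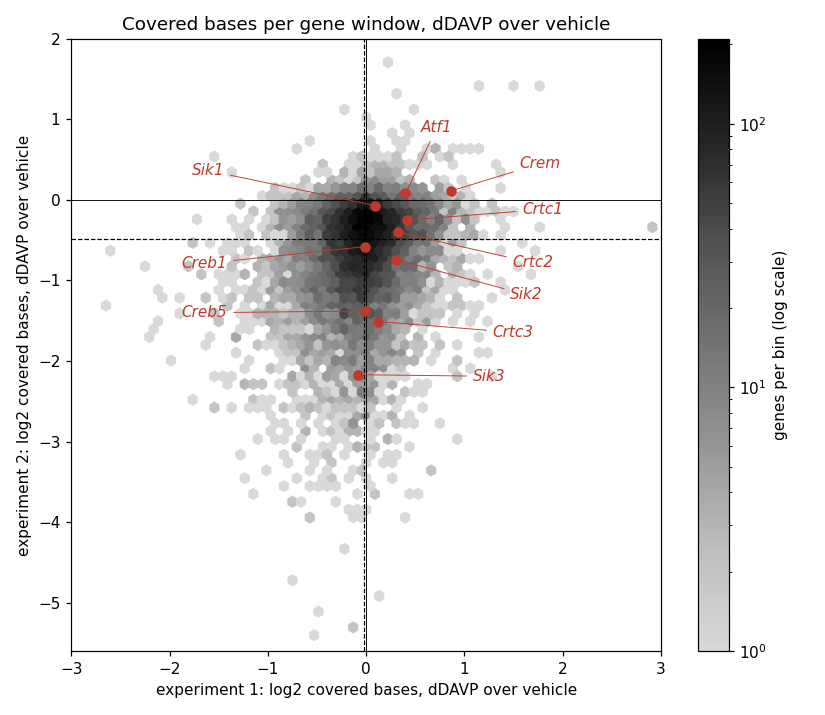
Log2 ratio of covered bases, dDAVP over vehicle, in experiment 1 (horizontal axis) and experiment 2 (vertical axis); grey bins count the 12558 genes covered in all 4 lists (log scale), red points are the 10 genes, dashed lines the medians of all genes (-0.02 and -0.49). Crem (0.86 and 0.11) and Atf1 (0.40 and 0.08) lie above 0 on both axes, and Sik3 (-0.08 and -2.17) lies lowest.

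Read against all genes, the counts run as follows. Covered more with dDAVP in both experiments were 2 of the 10 genes, Crem and Atf1, against 2.84% of all genes. Covered less in both were 3 of the 10, Creb1, Creb5 and Sik3, against 51.4% of all genes, and the other 5 were mixed. Relative to the median ratio of all genes in each experiment, 5 of the 10 lay above it in both (Crem, Atf1, Crtc1, Crtc2 and Sik1), against 28.1% of all genes, and 1 lay below it in both (Sik3), against the same 28.1%. These counts are of few genes and carry no test. With lists cut to equal length within each experiment, Sik1 and Sik2 joined Crem and Atf1, giving 4 of 10 against 4.79% of all genes, and Creb1 alone was covered less in both. With a window of 50 kb on each side, 0 of 10 were covered more, against 1.56% of all genes, and 5 less, against 54.5%. With no flank, Sik1 joined Crem and Atf1, giving 3 of 10 against 5.53% of all genes. Covered less were then 4 (Creb1, Creb5, Sik2 and Sik3), against 45.5%. Keeping only peaks with a -log10 q-value of at least 5 left 8 of the 10 covered in all 4 lists. Of these, 3 were covered more, against 3.51% of all genes, and 1 less, against 51.9%. A fold of at least 5 left 5, of which 1 was covered more, against 4.07%, and 1 less, against 48.7%. With 4 lists cut to equal covered bases 5 were left, with 1 covered more, against 12.5%, and 0 less, against 37.9%.

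Regions are given here by where they lie in the genes. Merging the 4 lists gave 45705 regions, of which 64 overlapped the 10 windows. Called in all 4 lists were 7 of 7 regions at a listed start, the second Creb5 start included, against 85.3% of such regions over all protein-coding genes, and 5 of 5 at ends of genes without a listed start, against 76.7%. Inside the genes 4 of 46 regions were called in all 4 lists, against 20.5% over all protein-coding genes, and in the flanks 1 of 6 was, against 43.6%. In all, 17 of the 64 (26.6%) were called in all 4 lists, against 36.2% of all regions, and 15 (23.4%) in experiment 1 only, against 16.0%. By treatment, 0 of the 64 were dDAVP-only (both dDAVP lists and no vehicle list), against 0.0635% of all regions, and 1 was vehicle-only, the one in Sik2, against 2.51%. Of the 17 shared regions, 3 were covered more with dDAVP in both experiments, against 4.78% of all shared regions: the internal Crem region, the high-end Sik1 region and the Sik2 start. Covered less in both were 4, against 51.3%: the starts of Crtc1 and Crtc3, the intragenic Crtc3 region and an intragenic Creb5 region. The median ratio of all shared regions was 0.978 in experiment 1 and 0.724 in experiment 2.

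**Figure D5:**
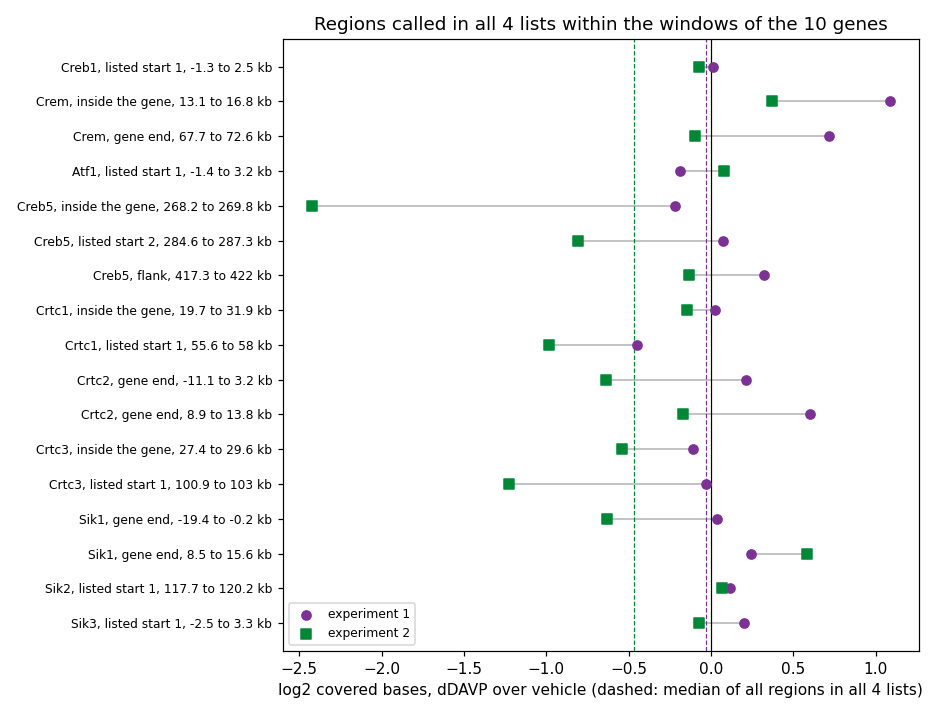
Log2 ratio of covered bases, dDAVP over vehicle (horizontal axis), for the 17 regions of the 10 windows that were called in all 4 lists, named by gene, place and distance from the low-coordinate end; purple circles are experiment 1, green squares experiment 2, dashed lines the medians of all shared regions. The internal Crem region, the high-end Sik1 region and the Sik2 start lie right of 0 in both experiments.

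Most other genes of the pathway also had acetylated starts. Over 6 lists of 68 genes, 49 starts were called in all 4 lists, against 45.1% of all genes, and 11 in none, and 59 genes were covered in all 4. Of those 59, 2 were covered more with dDAVP in both experiments, against 2.84% of all genes, 32 less, against 51.4%, and 25 were mixed. These shares and the median log2 ratios of -0.04 and -0.44 were near those of all genes. Both that were covered more are known CREB targets encoding orphan nuclear receptors: Nr4a2, with 7006 bases with dDAVP against 5132 with vehicle in experiment 1 and 5173 with dDAVP against 4875 with vehicle in experiment 2, and Nr4a3, with 2382 with dDAVP against 1317 with vehicle, then 3055 with dDAVP against 2932 with vehicle. In that target list, 6 of 12 starts were called in all 4 lists, and 4 of the 9 genes covered in all lists were covered less in both experiments, among them Fos, Fosb and Ppargc1a. Uncalled in every list were the starts of Bdnf, Pck1 and Sst. The Bdnf window nevertheless held peaks in every list, and the Pck1 window in every list but that of dDAVP in experiment 2.

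Partners and regulators of CREB and of the CRTCs are given by list, each to be read against 2.84% of all genes covered more and 51.4% covered less in both experiments. These are shares of the genes covered in all 4 lists. Among 13 coactivator and other CREB and ATF genes, all 13 covered in all 4 lists, 10 starts were called in all 4 lists, 0 genes were covered more in both experiments and 7 less. They included the histone acetyltransferase genes Ep300, with ratios of 0.670 and 0.754, and Crebbp, with 0.681 and 0.797, whose products acetylate lysine 27 of histone H3. The median ratios of all genes were 0.987 and 0.714, so both genes lay below the median in experiment 1 and above it in experiment 2. Creb3l1 and Creb3l3 starts were uncalled, although the windows of both genes held peaks in every list. Of 10 genes for kinases of the CREB activation site, 8 starts were called in all 4 lists. Of the 8 genes covered in all 4 lists, 0 were covered more in both experiments and 5 less (Rps6ka1 and Camk1 among them). Genes for LKB1, which switches on the SIKs, its partners and the AMPK-related kinases gave 10 of 13 starts called. Of the 10 covered in all 4 lists, 0 were covered more and 6 less (Mark3 and Cab39 among them).

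Genes for calcineurin, 14-3-3 proteins and other regulators of CRTC location or turnover had 11 of 12 starts called in all 4 lists. All 12 genes were covered in all 4 lists, with 0 covered more and 6 less. The start of Ywhaz, a 14-3-3 gene, was uncalled although its window held peaks in every list. For class IIa histone deacetylases and MEF2 factors, which the SIKs also control, 4 of 8 starts were called in all 4 lists. Of the 7 genes covered in all 4 lists, 0 were covered more and 4 less, Hdac5 with ratios of 0.789 and 0.446. No list had a peak at the counted starts of Hdac9, Mef2b and Mef2c, although the windows of Hdac9 and Mef2b held peaks in every list.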

How the data were processed

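Per the submitters' processing notes, reads were handled with BWA, SAMtools and MACS2 on mm10. Per the file headers, the authors called peaks with MACS 2.1.1.20160309 in broad mode, each H3K27ac library against the input of its own treatment and experiment, with q-value limits of 0.01 for strong and 0.1 for broad regions, scaling the larger data set of a call towards the smaller. Replicates had not been pooled. The lists were attached to records of the inputs, and peak names in those of experiment 2 carry the number 3. The pileup column is the authors' coverage signal and the fold enrichment column their ratio to local background; 2 nameless columns were taken as the authors' -log10 p-value and, behind it, -log10 q-value. None of these values is compared between lists.

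Covered bases, calls and regions (overlapping peaks merged, at least 1 bp) were computed in Python 3.11.15 with pandas 2.3.3 and checked on simulated data. Peaks off the main chromosomes were left out (22 and 11 for dDAVP and vehicle in experiment 1, 5 and 12 in experiment 2). Libraries were paired by the experiment number of the labels. Across genes, the experiment 1 minus experiment 2 differences of dDAVP and vehicle correlated at 0.62. Both lists of experiment 1 were longer than those of experiment 2, which can by itself give a positive value. The correlation is thus a description and does not bear on whether cultures were shared. Lists hold no counts per region, so depth was read from the headers, with inputs of 30753752 to 38291361 tags. The 10 genes and the other lists were chosen with earlier results of these data known. All members are named, and of each pathway list up to 3 genes covered more in both experiments (highest smaller ratio), up to 3 covered less (lowest larger ratio) and up to 5 with a start in no list. Alternatives were stricter limits, lists of equal length or covered bases, other windows and margins, and libraries left out.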

Additional observations from a re-analysis of the deposited data

How the results depend on the processing

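Starts called in all 4 lists numbered 9 in the main count, with start windows of 500 and 2500 bp, and with any 1 library left out (9 to 9); they numbered 3 with a fold of at least 5 and 4 with 4 lists of equal covered bases. Genes covered more with dDAVP in both experiments were 2 in the main count. With a fold of at least 5 or 4 lists of equal covered bases, 1 was, of 5 still covered in all 4 lists. They numbered 4 with equal length and 5 with equal covered bases within each experiment. Relative to the median ratio of all genes (chosen after seeing the data) they numbered 5, and 0 with 50 kb flanks or past a ratio of 1.2. Those covered less, 3 in the main count, numbered 1 with a -log10 q or a fold of at least 5, 1 with equal length or equal covered bases within each experiment and 1 relative to the median, 0 with 4 lists of equal covered bases, 5 with 50 kb flanks and 0 past 1.2. Of all genes, 2.84% were covered more and 51.4% less in the main count. Within each experiment, equal length gave 4.79% and 47.9%, and equal covered bases 13.4% and 36.5%. With 50 kb flanks the shares were 1.56% and 54.5%, and past a ratio of 1.2 they were 0.295% and 16.1%. Crem counted as covered more under the list settings, in which its few peaks are kept or dropped whole, but not with 50 kb flanks or past 1.2. The within-experiment ratios already serve as the replicate block; with no replicate block, 0 genes were covered more and 0 less.

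Leaving out 1 library sets a single list of one experiment against the mean of both, so the unequal list lengths move these counts by construction and they say nothing of stability: of all genes, 0.35% were covered more without dDAVP of experiment 1, 74.2% without vehicle of experiment 1, 82.9% without dDAVP of experiment 2 and 4.69% without vehicle of experiment 2. Those covered more of the 10 then ranged from 1 to 10 and those covered less from 0 to 9. Regions called by treatment ranged from 0 to 12 (dDAVP-only, 12 without dDAVP of experiment 2) and from 1 to 10 (vehicle-only). The vehicle-only region in Sik2 was lost (0 regions) under both stricter limits and under all 4 settings of equal length or covered bases. With calls made on 50% of a region's length, 1 region was dDAVP-only, the internal one of Crem, against 0.0766% of all regions, and 0 were vehicle-only. Pathway genes covered more, 2 in the main count, numbered 4 with equal length (4 lists, or within each experiment) and with no flank, 10 and 7 with equal covered bases within each experiment and over 4 lists, 0 past 1.2, and 2 to 53 with a library left out. Those covered less, 32 in the main count, numbered 20 with a fold of at least 5, 15 and 11 with equal covered bases, 9 past 1.2, and 12 to 63 with a library left out.

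Mean log2 ratios changed sign in at least 1 alternative for 8 of the 10 genes. Among those called the same way in both experiments, they changed sign for Creb5 (0.52) and Sik3 (0.05) with equal covered bases within each experiment, and for Atf1 with either stricter limit, with equal length over 4 lists or equal covered bases over 4 lists (-0.05 each) and with 50 kb flanks (-0.12), where its small intragenic peaks were dropped or other genes entered the window; the causes of the changes were not tested. Among the mixed genes, Sik2 (-0.22 in the main count) gave 0.89 with a -log10 q of at least 5 or equal length over 4 lists, 0.19 with equal length or equal covered bases within each experiment, 0.3 without replicate 2 and 0.03 relative to the median. Crtc1 (0.08) gave -0.02 and -0.1 under the stricter limits, -0.11 with 4 lists of equal covered bases and -0.25 without replicate 1. Sik1 (0.01) gave -0.36 with 50 kb flanks and -0.07 without replicate 1. With no flank, however, Sik1 gave 0.7 (0.5 and 0.9 in experiments 1 and 2). It gave 0.5 with equal length over 4 lists and 0.54 with equal length or equal covered bases within each experiment. Crtc2 (-0.04) gave 0.32 without replicate 2 and 0.21 relative to the median, and Crtc3 (-0.7) gave 0.12 without replicate 2. Creb1 and Crem changed sign in none of 11 alternatives. The mean log2 ratio of the internal Crem region was 0.73 in the 5 settings that called it in all 4 lists, the same by construction because its 4 peaks are kept or dropped whole, and the region was called in neither list of experiment 1 with 4 lists of equal covered bases. Peak lists without counts and 2 experiments limit all of these values.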
